A study of Rattus norvegicus with 15 samples.

Results

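The 10 genes of the EGF receptor system followed here were read on whole-genome expression arrays of rat small intestine. For the ligands Areg, Ereg and Tgfa the surgical group differed from its sham-operated control. These were 3 of 11 tested probes, where 8.36% of all tested probes differed. The calls of Areg and Ereg held in all 30 alternative settings, and that of Tgfa was lost in 10 of them. The 10 genes were the receptors Egfr, Erbb2 and Erbb3 and the ligands Egf, Tgfa, Areg, Ereg, Btc, Hbegf and Nrg1. They were chosen by name, as every non-control probe whose gene name in the scanner files was one of these 10, out of 17338 genes named on the array. This gave 13 probes of the 41012 on the array, of which 22503 carried a gene symbol and 17028 were bright enough to be tested. Of the 13 probes, 11 were tested.

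Each of the 3 groups held 5 arrays, 1 per RNA sample, and all rats were male. GK rats are a nonobese, spontaneously diabetic strain derived from Wistar stock. The GK-S-30 group had Roux-en-Y gastric bypass (RYGB) with a Roux limb (RL) of 30 cm, the segment of jejunum that is joined to the gastric pouch and receives food without bile. The GK-Sham-PF group had a laparotomy with the jejunum cut and rejoined in place, and was pair-fed. Both GK groups were operated on at 16 wk of age and sampled 14 wk later, and the Wistar group had no operation. Segments were taken after an overnight fast from the RL in GK-S-30 rats and from the matching stretch of jejunum in the other groups. In what follows RL stands for the GK-S-30 arrays and sham for the GK-Sham-PF arrays. RL against sham addresses the RYGB relative to sham surgery with pair feeding, as the GK-S-30 rats were not pair-fed. Sham against Wistar addresses the strain together with sham surgery and pair feeding. RL against Wistar addresses the strain together with the RYGB, without pair feeding in either group.

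The EGF receptor and its relatives are receptor tyrosine kinases that pair when a ligand binds, phosphorylate tyrosines in each other's tails, and recruit adaptors such as Grb2 that lead to Ras and the MAP kinases. Their ligands are made as membrane-anchored precursors, which metalloproteases of the ADAM family or rhomboid proteases cut to release the growth factor. In the intestine the system is known for sustaining crypt proliferation and for repair after injury, in which Areg and Ereg are inducible ligands.

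The probes that carry the account differ in how they read their gene. The Ereg probe (A_44_P540992, rn4 chr14:18521343-18522341, minus strand) covers more genome than its own 60 bases, so it spans a splice junction, and it gave the largest difference among the receptors and ligands. The Egfr probe A_44_P194138 (rn4 chr14:97786789-97787499, plus strand) also spans a junction, and the capitals mark the codons of the tail tyrosine motif that binds Grb2. It is shown because it reads the receptor that Areg, Ereg and Tgfa share.
Ereg probe: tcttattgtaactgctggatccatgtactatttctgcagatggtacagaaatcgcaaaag
Egfr probe: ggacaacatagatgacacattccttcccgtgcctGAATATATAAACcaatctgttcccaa
Areg and Ereg lie next to each other on chromosome 14 and were both lower in the RL than in sham. For this reason the stretch of 250 bases before the start of Areg is shown. It comes from RefSeq (GRCr8 chr14:17265642-17265891, minus strand), and the capitals mark TGACGTCA, the full cAMP response element, and TATAAA, each searched on both strands without overlap between them.
Areg promoter: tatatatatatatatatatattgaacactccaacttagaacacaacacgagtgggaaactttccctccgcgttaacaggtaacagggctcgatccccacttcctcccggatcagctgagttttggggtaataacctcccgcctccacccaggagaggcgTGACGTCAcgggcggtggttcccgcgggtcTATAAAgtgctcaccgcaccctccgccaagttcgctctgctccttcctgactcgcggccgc
The first base of TGACGTCA lay 91 bases before the start. Of 33469 promoters in the RefSeq table, 1.59% held TGACGTCA and 12.9% held TATAAA in the same window. Promoters were matched for 7 of the 10 genes (Egfr, Erbb2, Egf, Tgfa, Areg, Btc and Hbegf), and Areg was the 1 among them with either motif. The matches describe letters in a window, and no binding was measured.

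Depth and quality were alike in the 3 groups apart from 2 dimmer arrays. The 75th percentile of the processed signal was 206.6 on Wistar replicate 3 and 208.4 on GK-Sham-PF replicate 5, and between 302 and 357 on the other arrays. An array had 66.7% to 74.8% of its probes well above background and none saturated. The arrays lay on 4 slides: A held Wistar replicates 2 to 5, B held Wistar replicate 1 with GK-Sham-PF replicates 1 to 3, C held GK-Sham-PF replicates 4 and 5 with GK-S-30 replicates 1 and 2, and D held GK-S-30 replicates 3 to 5. Slide and group were therefore partly confounded, and GK-S-30 and Wistar never shared a slide. Values below are quantile-normalised signals, and differences are log2 fold changes with their standard error (SE) from limma fitted over the 17028 probes, with p adjusted by the Benjamini-Hochberg method.

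Of the 13 probes, 11 were well above background on all 15 arrays. The exceptions were the Btc probe (rn4 chr14:18233593-18233652) and the Nrg1 probe A_44_P222282 (rn4 chr16:63053889-63053948). Btc, betacellulin, was well above background on 2 of 5 Wistar, 2 of 5 GK-Sham-PF and 3 of 5 GK-S-30 arrays, with signals between 6.56 and 17.7. Nrg1 probe A_44_P222282 was well above background on 1, 2 and 1 arrays of these groups, with signals between 4.70 and 17.6. Neither probe was measured on every array of any group, so no fold change is given for them. Signals of different probes do not rank transcripts, since each probe binds its target with its own strength.

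**Figure D1:**
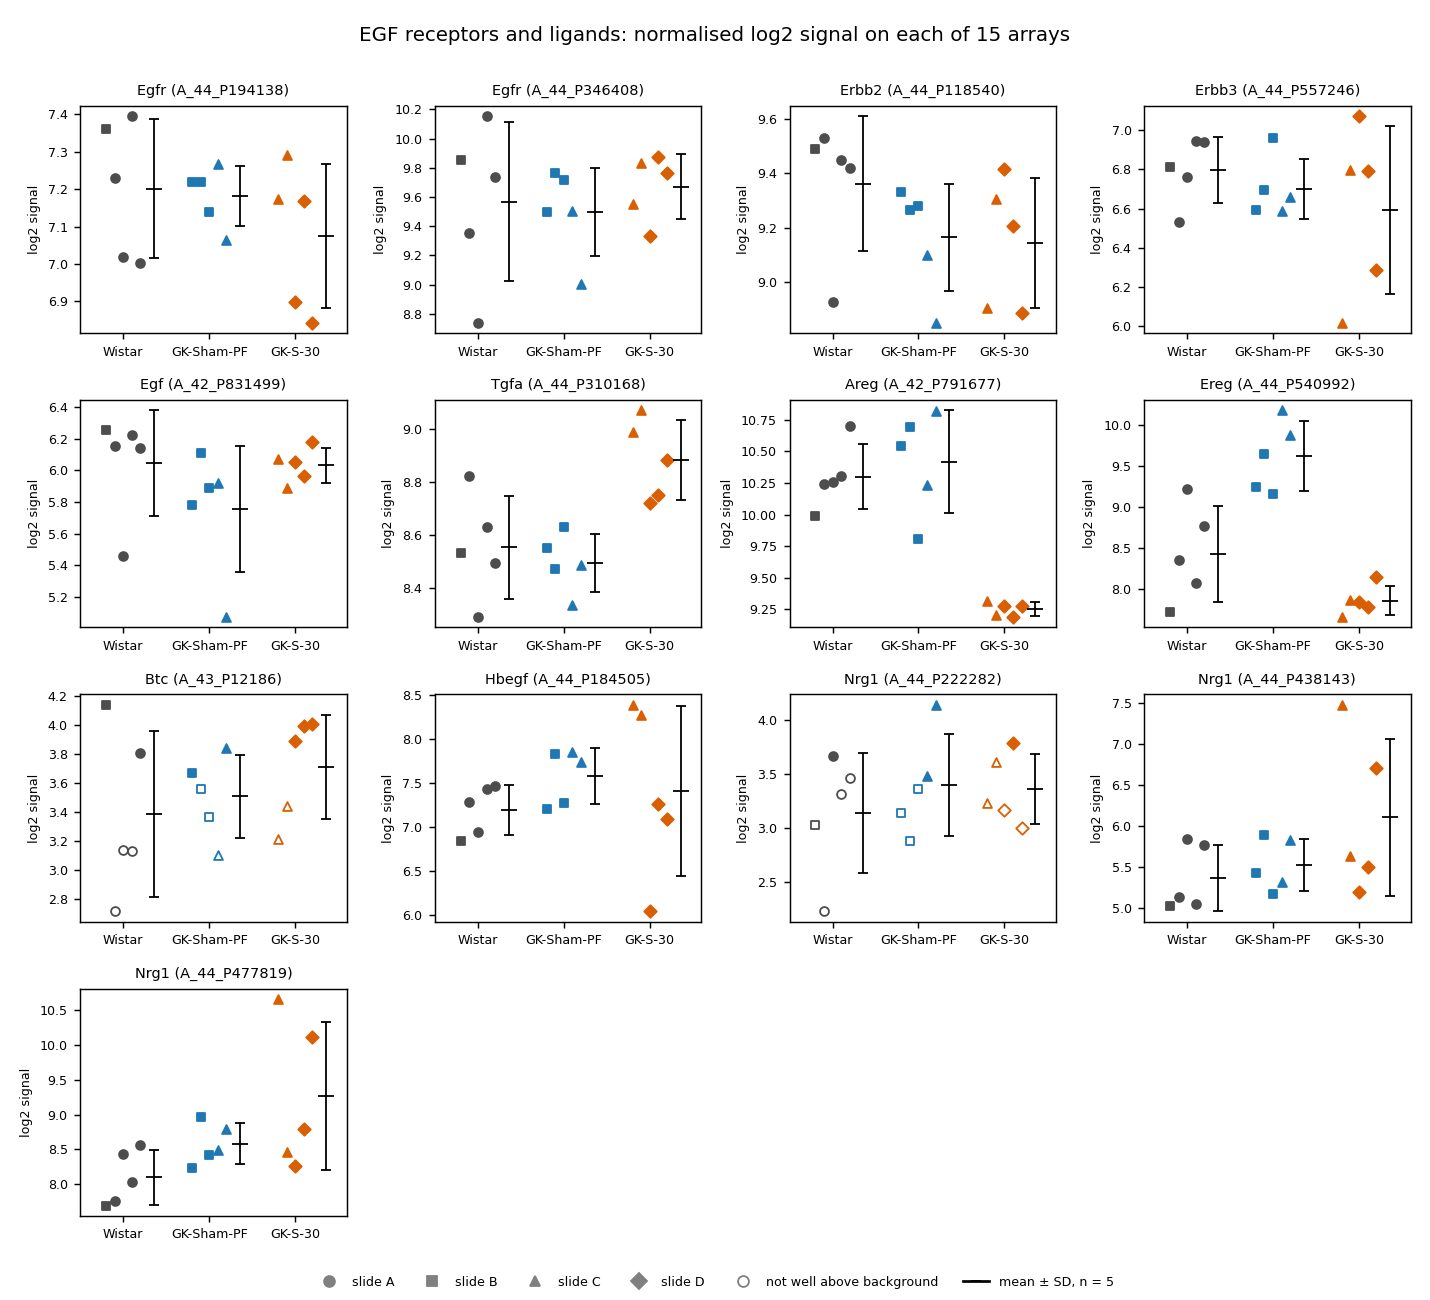
Normalised log2 signal (y axis) of each of the 13 probes on 15 arrays, by group (x axis), with symbols for the slide, open symbols where a probe was not well above background, and bars for the mean ± SD of 5 arrays. The 5 GK-S-30 arrays lie below all other arrays for Areg, and below every GK-Sham-PF array for Ereg.

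In RL against sham, 3 of the 11 tested probes passed the test, where 8.36% of all tested probes did. Areg and Ereg fell, as 3.59% of all tested probes did, and Tgfa rose, as 4.77% did. Their groups did not overlap, which held for 3 of the 11 probes and for 8.41% of all probes. The median log2 fold change of the 11 probes was -0.02, beside -0.02 over all tested probes.

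Areg encodes amphiregulin, a ligand of Egfr with a heparin-binding stretch. Its signal (rn4 chr14:18466438-18466497, minus strand) was 638, 589.7, 619, 583 and 621 on GK-S-30 replicates 1 to 5, and 1489.8, 1657, 897, 1206 and 1805 on those of GK-Sham-PF. In Wistar it was 1017, 1212, 1222, 1262 and 1669. The 5 RL arrays were thus low and close together (SD 0.0541 on the log2 scale), while the arrays of both other groups were high and spread. Areg was 2.25-fold lower in the RL than in sham (log2 fold change -1.17, SE 0.17, limma adjusted p = 0.000653). It was 2.07-fold lower than in Wistar (log2 fold change -1.05, SE 0.17, limma adjusted p = 0.00037). Sham and Wistar did not differ beyond their spread (log2 fold change 0.12, 95% interval -0.24 to 0.48). On slide C alone the 2 GK-S-30 arrays lay 1.27 below the 2 GK-Sham-PF arrays on the log2 scale (difference -1.27). The fall against Wistar was lost with slide as a fixed block (log2 fold change -0.91, adjusted p = 0.345), in which these groups are linked through GK-Sham-PF alone. Over all 17028 tested probes this block left 327, 210 and 268 calls, beside 1424, 1342 and 4101 without it. The order is RL against sham, sham against Wistar and RL against Wistar.

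Ereg encodes epiregulin, a ligand of Egfr and Erbb4. Its signal was 201, 233, 228, 219 and 283 on GK-S-30 replicates 1 to 5, against 609, 803, 574, 1163 and 942 in GK-Sham-PF. In Wistar it was 210.4, 327, 596, 268 and 438. The GK-Sham-PF arrays were high, those of the RL were low, and the Wistar arrays lay from the RL level up to the lowest sham arrays. The difference between RL and sham was 3.42-fold (log2 fold change -1.77, SE 0.25, limma adjusted p = 0.000573). Ereg was 2.30-fold higher in sham than in Wistar (log2 fold change 1.20, SE 0.25, limma adjusted p = 0.0066), with Wistar replicate 3 inside the sham range. RL and Wistar were not separated (log2 fold change -0.57, 95% interval -1.11 to -0.04, adjusted p = 0.113). Without Wistar replicate 1 that difference passed (log2 fold change -0.75, adjusted p = 0.0389). Within slide C the RL arrays were lower than the sham arrays (difference -2.27), and within slide B the 3 sham arrays were higher than the Wistar array (difference 1.64). With slide as a fixed block the rise from Wistar to GK-Sham-PF kept its direction at an adjusted p of 0.0506.

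Tgfa encodes transforming growth factor alpha, an Egfr ligand made by gut epithelium. The signal (rn4 chr4:120437505-120437564, plus strand) was 507, 537, 421, 430.5 and 472 in GK-S-30, and 375, 355, 396, 323 and 359 in GK-Sham-PF. The Wistar arrays gave 370.1, 452, 313, 396 and 360.3. All 5 RL arrays exceeded every sham array, whereas Wistar replicate 2 lay within the RL range. Tgfa was 1.31-fold higher in the RL than in sham (log2 fold change 0.39, SE 0.11, limma adjusted p = 0.036) and 1.26-fold higher than in Wistar (0.33, SE 0.11, limma adjusted p = 0.0357). The call against GK-Sham-PF was lost without GK-Sham-PF replicate 1, 2, 4 or 5 or GK-S-30 replicate 1, 2 or 5, with adjusted p between 0.0571 and 0.0826. Against Wistar it was lost without Wistar replicate 1, 3 or 5 or GK-S-30 replicate 1, 2 or 5, with adjusted p between 0.063 and 0.0793. Within slide C the difference between RL and sham was 0.62. Both calls were lost when slide entered as a fixed block, at 0.62 against sham (adjusted p = 0.0849) and 0.64 against Wistar (adjusted p = 0.271). They were also lost by Tukey p with Benjamini-Hochberg adjustment (0.0925 and 0.0781) and with the replicate block (limma adjusted p = 0.0651 and 0.0559). Against Wistar the call was lost without the 2 dim arrays as well (limma adjusted p = 0.0703).

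**Figure D2:**
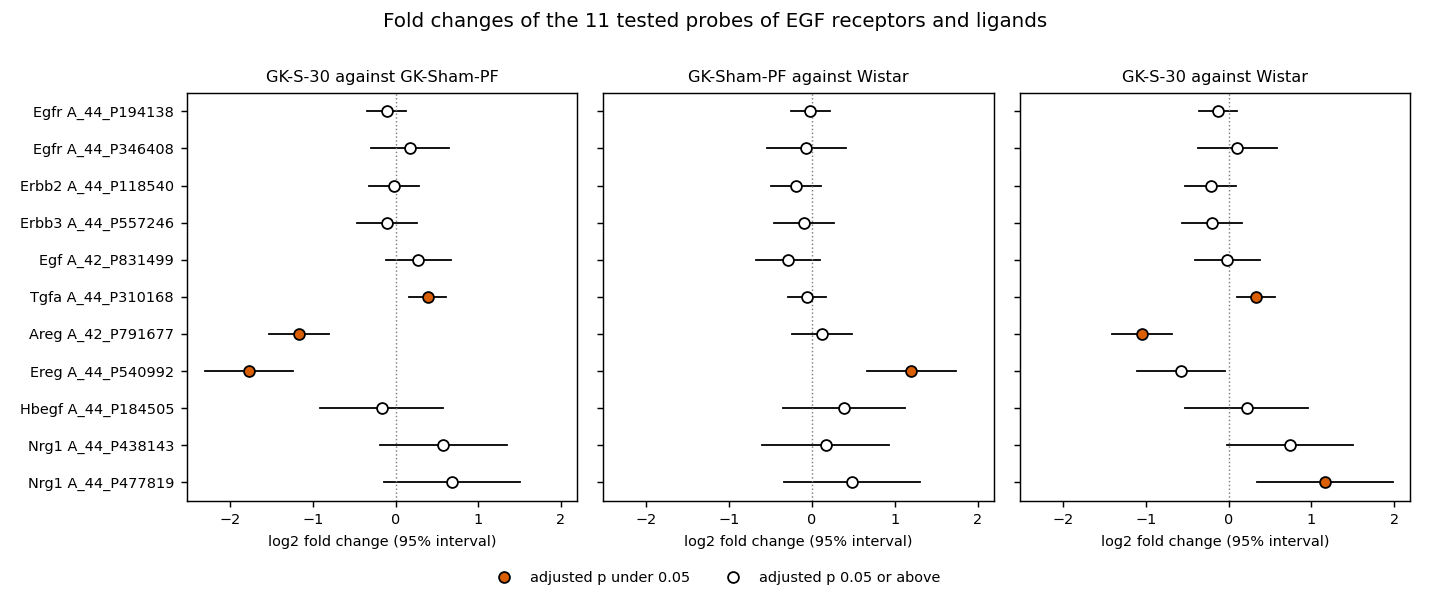
Log2 fold change (x axis) of the 11 tested probes (y axis) in the 3 comparisons, with 95% intervals from limma and filled points where the adjusted p was under 0.05. Areg and Ereg stand at -1.17 and -1.77 in RL against sham, and the receptor probes lie near 0 in every comparison.

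Against Wistar, 1 of the 11 probes passed in GK-Sham-PF (Ereg, higher), where 7.88% of all tested probes did (3.74% higher and 4.14% lower). None of the 11 had groups that did not overlap in that comparison, beside 9.06% of all probes. In RL against Wistar 3 of 11 passed, where 24.1% of all tested probes did (11.9% higher and 12.2% lower). These were Areg, lower, and Tgfa and Nrg1 probe A_44_P477819, higher. Areg was the 1 probe whose groups did not overlap, beside 18.3% of all probes.

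Nrg1 encodes neuregulin, a ligand of Erbb3 and Erbb4. Probe A_44_P477819 (rn4 chr16:64124972-64125031) gave 1617, 355, 307, 446 and 1109.7 in GK-S-30, 302, 500.1, 342, 359.9 and 442 in GK-Sham-PF, and 207, 217, 346, 263 and 379 in Wistar. RL replicates 1 and 5 were far above all other arrays, and the remaining 3 RL arrays lay within the range of GK-Sham-PF. Probe A_44_P438143 (rn4 chr16:64093883-64093942), spotted 10 times on each array, showed the same arrays high, at 179 and 105, with 36.6 to 49.9 on the others of the group. It read 36.2 to 59.4 in GK-Sham-PF and 32.6 to 57.3 in Wistar. Across the 15 arrays the log2 signals of both probes correlated with Pearson's r = 0.956, a description of probes that read the same RNA. Probe A_44_P477819 was 2.24-fold higher in the RL than in Wistar (log2 fold change 1.16, SE 0.39, limma adjusted p = 0.0392). Probe A_44_P438143 did not pass (0.74, SE 0.36, adjusted p = 0.148). The call was lost without GK-S-30 replicate 1 (0.81, adjusted p = 0.0868) or replicate 5 (0.95, adjusted p = 0.101), and without Wistar replicate 1, 2 or 4 (adjusted p = 0.0877, 0.0812 and 0.0681). Under the slide block the difference was 1.77 and did not pass (adjusted p = 0.437). Neither probe passed in RL against sham, with log2 fold changes of 0.58 and 0.68.

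Hbegf, heparin-binding EGF-like growth factor, also varied most within the RL. Its signal was 335, 309, 65.9, 153 and 136 in GK-S-30, 147, 227, 155, 231 and 213 in GK-Sham-PF, and 114, 156, 123, 173 and 176 in Wistar. RL replicates 1 and 2, both on slide C, were above every other array, and replicate 3 was below every other array. The SD of the RL group was 0.96 on the log2 scale, beside 0.32 in GK-Sham-PF and 0.29 in Wistar. No comparison passed (log2 fold changes of -0.17, 0.39 and 0.22 for RL against sham, sham against Wistar and RL against Wistar).

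Egf, the prototype of the family, was read by a probe spotted 10 times (rn4 chr2:227104446-227104505, minus strand). Its signal ranged from 59.1 to 72.6 in GK-S-30, from 33.6 to 68.9 in GK-Sham-PF and from 44.0 to 76.4 in Wistar. The lowest values of the sham and Wistar groups came from the 2 dim arrays, GK-Sham-PF replicate 5 and Wistar replicate 3. The log2 fold changes were 0.28 for RL against sham and -0.29 for sham against Wistar, and neither passed.

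None of the 4 receptor probes passed in any comparison by limma, and 0 of 4 had an unadjusted p under 0.05 in each. Of all 17028 tested probes 3761 had one in RL against sham, 3322 in sham against Wistar and 6214 in RL against Wistar. For Egfr, probe A_44_P194138 ranged from 115 to 157 in GK-S-30, from 134 to 154 in GK-Sham-PF and from 128 to 168 in Wistar. Its difference between RL and sham was -0.11 with a 95% interval of -0.34 to 0.13. The other Egfr probe, A_44_P346408 (rn4 chr14:97788051-97788110), gave 0.17 (95% interval -0.30 to 0.65), and the probes correlated with r = 0.442 over the 15 arrays. The sign of the small Egfr difference thus depended on the probe.

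Erbb2, the relative without a known ligand of its own that pairs with the other receptors, was read by a probe spotted 10 times (rn4 chr10:87241824-87241883). Its signal was 474 to 684 in GK-S-30, 462 to 645 in GK-Sham-PF and 486 to 738 in Wistar. RL against sham gave -0.02 (95% interval -0.32 to 0.28). Against Wistar, Erbb2 stood at -0.22 in GK-S-30 (adjusted p = 0.292). Without the 2 dim arrays this difference was -0.33 and passed (adjusted p = 0.0438), and it passed with array weights as well (-0.33, adjusted p = 0.0275). Erbb3, which has little kinase activity of its own and serves neuregulin, read 64.8 to 134 in GK-S-30, 96.3 to 124 in GK-Sham-PF and 92.6 to 123 in Wistar (rn4 chr7:1859093-1859343). RL replicates 1 and 5, the arrays with high Nrg1, were the lowest for Erbb3, at 64.8 and 78.1. Its log2 fold change against GK-Sham-PF was -0.11 (95% interval -0.47 to 0.25).

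The rest of the system was covered by 5 lists, with 92 tested genes read by their brightest probe. In RL against sham 5 of the 92 passed, all higher, which is 5.43% beside 9.12% of all genes tested this way. In sham against Wistar 3 passed, 3.26% beside 8.39%. In RL against Wistar 22 passed, 12 higher and 10 lower, 23.9% beside 25.5%. The share of the 92 genes lay under that of all genes in each comparison. Single lists differed: in RL against sham 2 of 9 ligand shedding genes passed, and 0 of 21 receptor inhibitors and feedback genes.

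Among the other ligands and the last receptor, Epgn and Nrg2 were tested, Erbb4 and Nrg3 were well above background on 0 of 15 arrays, and Nrg4 was not matched to a probe. Epgn, epigen, is the neighbour of Ereg. It read 20.8 to 38.4 in GK-S-30, 21.5 to 31.9 in GK-Sham-PF and 17.4 to 20.8 in Wistar. Epgn was 1.42-fold higher in sham than in Wistar at an adjusted p of 0.0499, a call lost in 21 of 30 alternative settings. In RL against sham it stood at -0.08 (adjusted p = 0.81), unlike its neighbours Areg and Ereg, although the difference between the genes was not tested. Nrg2, another neuregulin, gave -0.06 (adjusted p = 0.83) in that comparison.

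The largest differences of the system lay in ligand shedding, in RL against sham for Rhbdl2 and in sham against Wistar for Rhbdf1. Of the 9 tested genes 2 rose in RL against sham, where 9.12% of all genes passed. Rhbdl2 encodes a rhomboid protease of the cell surface that can cut EGF family precursors within the membrane. Its signal was 4621, 4620.4, 2808, 2139.7 and 3380.1 in GK-S-30, 769, 342, 789.5, 525 and 1024 in GK-Sham-PF, and 573, 652, 673, 964 and 694 in Wistar. Every RL array was above every array of the other groups. Rhbdl2 was 5.22-fold higher than in sham (log2 fold change 2.38, SE 0.28, limma adjusted p = 0.000146) and 4.81-fold higher than in Wistar (2.27, SE 0.28, limma adjusted p = 3.19e-05). The rise over GK-Sham-PF passed in all 30 alternative settings and was 2.66 within slide C. Against Wistar the call was lost with slide as a fixed block (adjusted p = 0.0516).

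Adam9, a metalloprotease that can shed Hbegf, was 1.35-fold higher in the RL than in sham (log2 fold change 0.44, SE 0.09, limma adjusted p = 0.00814). Its RL arrays read 76.3 to 88.2, above the 56.2 to 64.9 of the sham arrays. A second, dimmer Adam9 probe gave 0.61 and did not pass (adjusted p = 0.363). The brighter probe gave 0.48 under the slide block and did not pass (adjusted p = 0.146).

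Rhbdf1 was higher in both GK groups than in Wistar. It encodes iRhom1, a rhomboid relative without protease activity that helps ADAM17 mature. Its signal was 519.6, 609.6, 557, 510.5 and 433 in GK-Sham-PF and 556, 444, 499, 373 and 478 in GK-S-30, against 73.2, 102, 57.7, 85.1 and 72.9 in Wistar. Both GK groups lay far above Wistar and overlapped with each other. Rhbdf1 was 6.80-fold higher in sham than in Wistar (log2 fold change 2.77, SE 0.15, limma adjusted p = 4.14e-09), and 2.94 higher on the log2 scale within slide B. It passed in all 30 alternative settings. RL against sham gave -0.17 (adjusted p = 0.574). Strain, sham surgery and pair feeding cannot be told apart in sham against Wistar. The probe reads 1 stretch of the transcript, and a sequence difference between the strains under the probe was not tested.

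**Figure D3:**
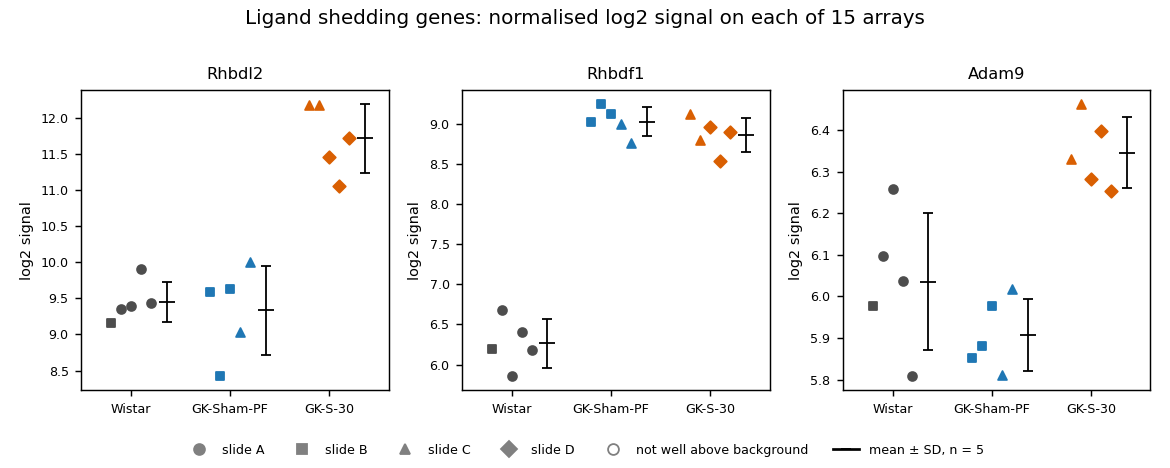
Normalised log2 signal (y axis) of Rhbdl2, Rhbdf1 and Adam9 on 15 arrays by group (x axis), with symbols for the slide and bars for the mean ± SD of 5 arrays. Rhbdl2 was high in the 5 GK-S-30 arrays, and Rhbdf1 in the 10 arrays of both GK groups.

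Downstream of the receptors few genes passed in RL against sham. Of 38 adaptors and kinases, Eps15, which acts in receptor endocytosis, and the GTPase Hras were higher, by 0.43 (adjusted p = 0.0144) and 0.41 (adjusted p = 0.0115) on the log2 scale in limma. The second Eps15 probe gave -0.10 and did not pass, so the probes of that gene disagree. Both other Hras probes were also higher. Neither gene passed with slide as a block (0.48, adjusted p = 0.133 for Eps15 and 0.42, adjusted p = 0.176 for Hras), and Eps15 missed the threshold with the replicate block (adjusted p = 0.0541). Of 22 early response genes, Plaur, the urokinase receptor, was higher by 0.60 (limma adjusted p = 0.0222), a call lost without GK-Sham-PF replicate 1 or 3 or GK-S-30 replicate 3. It was also lost with slide as a fixed block (0.70, adjusted p = 0.2) and by Tukey p with Benjamini-Hochberg adjustment (adjusted p = 0.0947). None of the 21 inhibitors and feedback genes passed in limma. Of these, 3 had an unadjusted p under 0.05, as had 3761 of all 17028 tested probes.

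In sham against Wistar the early response gene Klf10 fell (log2 fold change -0.53, SE 0.13, limma adjusted p = 0.0199). It was lower in the RL than in Wistar as well (-0.77, SE 0.13, limma adjusted p = 0.000657). The call in sham against Wistar was lost without Wistar replicate 1 or 4 or GK-Sham-PF replicate 1 or 3, without the 2 dim arrays (adjusted p = 0.0593) and by adjusted Tukey p (0.0733). Klf10 passed under the slide block in neither comparison (adjusted p = 0.295 in sham and 0.12 in the RL against Wistar).

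In RL against Wistar the early response list had 7 of 22 genes passing, 5 higher and 2 lower, where 25.5% of all genes passed, so the list did not stand out by its count. Etv5, an ETS factor that follows MAP kinase activity, was 2.20-fold higher on its brightest probe, and its second probe passed at 1.00 on the log2 scale. Phlda1 was higher by 0.79 and Jun, a component of AP-1, lower (-0.56). Of the feedback genes, the phosphatase Dusp5 was higher (0.81), while Spry2, an inhibitor of receptor signalling, and the ubiquitin ligase Cblb were lower (-0.63 and -0.74). Of the 38 adaptors and kinases 3 were higher, led by Nck1 and Hras (0.55 and 0.37), and 6 were lower, led by Braf and Gab1 (-0.73 and -0.71). For Braf and Gab1 the other probe stood at -0.03 and -0.04 and did not pass. With slide as a fixed block, which links RL and Wistar only through sham, none of these 10 genes passed. Their adjusted p in that fit lay between 0.223 for Cblb and 0.9999 for Braf, and Nck1 and Braf stood near 0 (0.05 and 3.98e-05). Of all 17028 tested probes 268 passed in that fit. Of 30 alternative settings, the slide block among them, the call was lost in 10 for Phlda1, 7 for Jun and 6 for Dusp5. The losses were 3 each for Spry2 and Nck1, 2 for Cblb, and 1 each for Etv5, Hras, Braf and Gab1.

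**Figure D4:**
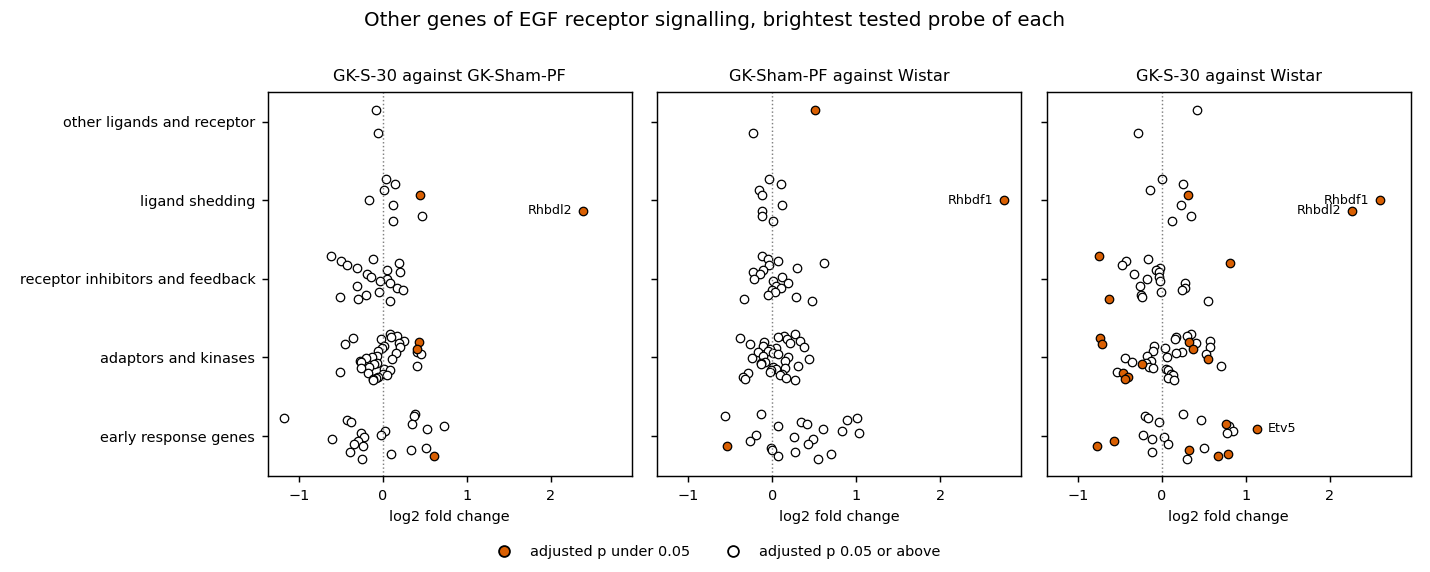
Log2 fold change (x axis) of 92 genes in 5 lists (y axis) in the 3 comparisons, 1 point per gene, filled where the adjusted p was under 0.05. Rhbdl2 stands apart at 2.38 in RL against sham and Rhbdf1 at 2.77 in sham against Wistar.

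The tissue held several cell types, and in whole segments fewer cells of a type and less RNA per cell cannot be told apart. All 12 epithelial markers were well above background on every array, and their summed signal was 631426 to 735922 in GK-S-30, 568176 to 688510 in GK-Sham-PF and 606040 to 724203 in Wistar. In RL against sham, where 9.12% of all genes passed, 2 of the 12 were higher (Krt19 and Krt18). In RL against Wistar, where 25.5% of all genes passed, 3 were higher and 1 lower. Smooth muscle markers moved with the surgical group, with 7 of 11 higher in the RL than in sham and sums of 263190 to 332999, 85045 to 197085 and 106380 to 171568 in the same order. Of 9 fibroblast markers 5 were higher (Lum, Col3a1, Col1a1, Dpt and Col1a2), with sums of 26231 to 29393 beside 19800 to 25644 in GK-Sham-PF. Pdgfra, Pdgfrb and Dcn of that list stood at -0.35, -0.25 and -0.06, and Fbln1 at 0.03. None of these passed.

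Mast cell markers also differed. Of 6 tested, 2 fell in RL against sham (Ms4a2 and Mcpt1), where 9.12% of all genes passed. In sham against Wistar 1 rose (Mcpt1), where 8.39% of all genes passed. The mast cell sums were 3144 to 6064, 5634 to 10130 and 3689 to 6826 in GK-S-30, GK-Sham-PF and Wistar. Of 9 immune markers tested 2 fell in RL against sham, Cd3e and Cd3g, beside the same 9.12% of all genes. Their list had sums of 5744 to 7687 beside 7212 to 10253. Itgam and Cd79b of that list stood at 0.34 and 0.33 and did not pass. Of 12 enteric neuron and glia markers tested 2 fell in RL against sham, Prph and Gfap, and the sums of 1998 to 2527 in the RL lay below those of 2553 to 3536 in sham. The goblet cell marker Clca1, 1 of 7 goblet and Paneth markers tested, and the endothelial marker Vwf, 1 of 6, were higher (0.73 and 0.55). The other endothelial markers Kdr, Cdh5, Egfl7 and Emcn stood at -0.37, -0.26, -0.20 and -0.02, and Pecam1 at 0.17. None of these passed. The endothelial sums were 3203 to 3513 in the RL beside 3345 to 4477 in sham. Of 11 crypt and proliferation markers none passed in that comparison in limma. There 2 had an unadjusted p under 0.05, as had 3761 of all 17028 tested probes. The part of these cell types in the differences of Areg, Ereg, Tgfa and Rhbdl2 was not tested.

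For each ligand gene that passed in a comparison, the most similar patterns over the 15 arrays are given as a description, since the arrays share groups, slides and normalisation. Tgfa went most closely with Ankrd50 and Noxa1 (Pearson's r = 0.931 for both), and within groups with r = 0.818 and 0.815. Areg went with Mettl7b (r = 0.881, within groups 0.622) and Bet1 (0.872, within groups 0.571). Ereg went with Atg10 (0.892, within groups 0.536) and Zkscan3 (0.88, within groups 0.707). Nrg1 went with Plek2 (0.913, within groups 0.866) and Nop10 (0.89, within groups 0.829), which were high on the same RL arrays.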

How the data were processed

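RNA from 15 male rat intestinal segments (5 Wistar, 5 GK-Sham-PF, 5 GK-S-30) was hybridised to 1-colour whole-genome arrays. Per the file headers, the deposited intensity values were made by Agilent Feature Extraction 10.7.3.1 (10.7 in the submitters' processing notes), and the processed signal is background-subtracted. The authors' deposited value table holds quantile-normalised log2 values of the same arrays and served as an alternative. Groups and replicate numbers came from sample titles.

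Spots flagged as outliers were left out, repeat spots of 1 probe were combined as their mean, and log2 signals of 41012 probes were quantile-normalised (R 4.3.3, limma 3.58.1), as in the study's methods. Tested were the 17028 named probes well above background (on more than 0.5 of their spots) on every array of at least 1 group. Linear models over 15 arrays without covariates gave 3 contrasts, with Benjamini-Hochberg adjustment over all tested probes at 0.05. The script was tested on simulated data. Probes were named by accession, symbol or synonym through the RefSeq table for 17541, 3098 and 539 probes, and 1325 kept the file's name. Positions are rn4, from the files.

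Every receptor and ligand probe is named. Of each other list and comparison at most 2 rises and 2 falls are named, the largest of those passing. The genes and lists were chosen with earlier results of these data known. Samples were extracted 1 by 1, and nothing in the labels ties samples of different groups together. Alternatives covered the scaling, background correction, authors' values, filters, probe choice, outlier spots, slide, replicate block, dim arrays, array weights, the methods' Tukey comparison, and each array left out. The number of arrays limits the precision.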

Additional observations from a re-analysis of the deposited data

Results flagged for a closer look

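Among 39 pairs of a probe and a group, 3 had an array far from the other 4 by Dixon's criterion, where chance alone flags about 1 pair in 20. The Erbb2 signal of Wistar replicate 3 was 8.93 on the log2 scale, below the next array at 9.42. The Egf signal of the same array was 5.46, below the next at 6.14. Wistar replicate 3 is 1 of the 2 dim arrays. The Erbb3 signal of GK-Sham-PF replicate 3 was 6.96, above the next at 6.69. None of these pairs belongs to a difference that passed in the main fit. Erbb2 in RL against Wistar did pass without the 2 dim arrays, Wistar replicate 3 among them (limma adjusted p = 0.0438). It passed with array weights as well (limma adjusted p = 0.0275).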

How the results depend on the processing

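The falls of Areg and Ereg in RL against sham passed in all 30 alternative settings, with log2 fold changes of -1.32 to -1.02 and -2.27 to -1.42 and adjusted p of at most 0.0395 and 0.009. With slide as a fixed block, 0 receptor and ligand probes passed in either comparison with Wistar. The other lists gave 2 genes in RL against sham, 1 in sham against Wistar and 2 in RL against Wistar. Calls over all 17028 tested probes also dropped, from 1424, 1342 and 4101 without the block to 327, 210 and 268 with it. With the block Braf in RL against Wistar changed sign, to 3.98e-05. Leaving out 1 array at a time gave 2 to 3, 1 to 1 and 1 to 3 probes in the order RL against sham, sham against Wistar, RL against Wistar, and 4 to 8, 1 to 6 and 17 to 23 list genes. For RL against Wistar 1 probe passed without GK-S-30 replicate 1 or 5, where 3576 and 3497 of all tested probes did. List genes in sham against Wistar numbered 1 without Wistar replicate 1 or 4, where 1065 and 998 of all tested probes passed. They numbered 6 without GK-Sham-PF replicate 5, where 1470 did. Without that array 8 list genes passed in RL against sham, beside 1300 of all tested probes.

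The other changes were in counts. For RL against Wistar, 1 probe passed with Tukey p adjusted by Benjamini-Hochberg, and 14 list genes, where 2690 of all tested probes did. List genes in RL against sham numbered 9 without the 2 dim arrays, 10 with array weights and 11 by unadjusted Tukey p. Over all tested probes 1879, 2396 and 2565 passed in these settings, beside 1424 in the main fit. List genes in sham against Wistar numbered 5 with slide as a random block and 5 without the dim arrays. They numbered 18 with array weights, 7 by Tukey p and 1 by adjusted Tukey p. All tested probes passing there numbered 1557, 1576, 3177, 2373 and 827 in the same order, beside 1342 in the main fit. The causes were not tested. Same-numbered samples of different groups did not deviate together (r between -0.29 and 0.202). Whether the numbers pair rats cannot be told from this, and the labels name no pairs. With the replicate block 1 probe and 14 list genes passed in RL against Wistar, where 3350 of all tested probes did. In that fit Tgfa missed the threshold against GK-Sham-PF (adjusted p = 0.0651).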
